A study of Mus musculus with 4 samples.

Results

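The comparison described here sets adipocytes that received an extract of pig testis (PT) and no other agent against adipocytes that received only the vehicle, phosphate-buffered saline (PBS). Both cultures were 3T3-L1 cells, a single established mouse line of embryonic fibroblast origin, and had been differentiated into adipocytes before treatment. PT was given at 100 µg/ml, and treatment lasted 7 days in both groups. A further pair of cultures received daidzein, a soy isoflavone, at 25 µM, alone or with PT at the same dose. RNA of each of the 4 groups was hybridized to 1 single-colour (Cy3) Agilent array of 60-base probes. The series title concerns adiponectin expression and secretion, and this pair of arrays addresses what PT does to transcript levels without daidzein.

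A gene was read in this comparison when its probe was well above background on both arrays, which held for 18819 of the 34797 gene names on the array. Signals are given as scaled signals, the processed intensity divided by the 75th percentile of the array, so that a value of 1 is the level of that percentile. Differences are log2 values of PT minus PBS, so that 1 is a doubling. There were no replicates: each side is 1 array, no test was made, and every difference compares those arrays and not the conditions. The scanner software put the error of a difference at 0.20 for the bright spots, a value that holds spot error but no variation between cultures. Replicate spots of a probe gave differences with a median SD of 0.06 (247 probes), and different probes of a gene a median SD of 0.10 (5317 genes). The pair daidzein+PT minus daidzein shares no array with this one and is given beside the named genes; 18246 of the 18819 genes were read in it as well. PBS and daidzein lay in row 1 of the slide, and PT and daidzein+PT in row 2, so the extract and the slide row cannot be told apart in either pair.

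Fat cells take up fatty acids and glucose, join them into triglyceride in a lipid droplet coated with perilipins, and release the fatty acids again through a cascade of lipases. The nuclear receptor PPARγ and the factor C/EBPα maintain this programme and drive the genes of its secreted hormones, among them adiponectin. Interferon-stimulated genes form a separate programme: interferon receptors activate transcription factors that bind a response element in the promoters of antiviral genes and raise them together.

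The sequences below show what was read for adiponectin and matches to a motif in the promoters of some members at the low end. The Adipoq probe lies at chr16:23157576-23157635 (mm9, the build of the scanner files), and its bases as the scanner file gives them are in lower case throughout.
Adipoq probe: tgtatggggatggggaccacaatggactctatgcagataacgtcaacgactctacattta

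The promoters were taken from RefSeq (GRCm38.p6), from 250 bases before to 50 bases after each start. Capitals mark the core of the interferon-stimulated response element, GAAANNGAA on either strand, in windows of 60 bases from the gene's own strand that end before the start. They are shown for some genes of the antiviral and IRG/GBP lists that were at least 1.5-fold lower and whose promoters hold the core. Low genes without a match, or without a promoter to search, could not be shown.
Ifit3, chr19:34583401-34583460, plus strand: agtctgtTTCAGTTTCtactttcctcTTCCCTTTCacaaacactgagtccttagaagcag
Rsad2, chr12:26456538-26456597, minus strand: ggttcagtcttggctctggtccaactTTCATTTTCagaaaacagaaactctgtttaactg
Tgtp2, chr11:49064249-49064308, minus strand: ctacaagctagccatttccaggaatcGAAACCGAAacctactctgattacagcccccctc
Irgm2, chr11:58214887-58214946, plus strand: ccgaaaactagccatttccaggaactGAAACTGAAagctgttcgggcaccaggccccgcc
Igtp, chr11:58199496-58199555, plus strand: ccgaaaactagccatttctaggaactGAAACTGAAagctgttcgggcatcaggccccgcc
Ifit1, chr19:34640779-34640838, plus strand: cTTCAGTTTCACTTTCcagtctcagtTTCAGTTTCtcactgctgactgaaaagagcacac
Cxcl10, chr5:92349069-92349128, minus strand: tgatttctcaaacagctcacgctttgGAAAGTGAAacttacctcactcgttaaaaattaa

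At the high end, capitals mark a C/EBP site, TTGCNNAA on either strand, in the same kind of window. These windows are shown for some members of the lipid droplet and acute-phase lists whose promoters hold the site. High genes without a match, or without a promoter to search, could not be shown.
Plin1, chr7:79732801-79732860, minus strand: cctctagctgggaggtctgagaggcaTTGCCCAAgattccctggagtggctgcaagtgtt
Cidec, chr6:113434929-113434988, minus strand: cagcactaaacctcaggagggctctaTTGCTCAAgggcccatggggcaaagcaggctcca
Orm2, chr4:63362303-63362362, plus strand: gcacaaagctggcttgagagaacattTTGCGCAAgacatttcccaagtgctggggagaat
Lcn2, chr2:32387922-32387981, minus strand: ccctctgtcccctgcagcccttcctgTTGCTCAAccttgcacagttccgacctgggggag

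The PT array was higher in some genes of fat storage and secretion and in most lipolysis genes read, and lower in most interferon-stimulated genes read. Of the 18819 genes, 168 (0.893%) had a signal with PT that was 2-fold higher or more, and 12 (0.0638%) had one that was 2-fold lower or more. At 1.5-fold the counts were 503 higher (2.67%) and 124 lower (0.659%), so 80.2% of these genes were on the higher side. That share was 81.2% with median scaling and 75.4% with cyclic loess, but 51.2% after quantile normalization and 51.4% in the authors' deposited series table. After another background correction (normexp) it was 90.7%. Without the filter on dim probes it was 64.8%, and 71.5% of the genes at 2-fold, against 93.3% with the filter. The median over all genes was -0.02, and 44.4% of genes lay above 0.

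Dim genes filled most of these counts. By mean signal of both arrays the genes were ranked into 3 classes of 6273, called dim, middle and bright, and the middle and bright classes together are called the brighter genes. The SD of the difference was 0.38 in the dim class, 0.17 in the middle class and 0.14 in the bright class. The dim class held 135 of the 168 genes at 2-fold higher and 11 of the 12 at 2-fold lower. Among the 12546 brighter genes, 33 (0.263%) reached 2-fold higher and 1 (0.00797%), Ifit3b, reached 2-fold lower. At 1.5-fold the brighter genes numbered 101 higher (0.805%) and 15 lower (0.12%). At the 2-fold edge the nearest genes inside were 2310030G06Rik and 1700019N19Rik at 1.0003 and 1.005 (differences), and the nearest outside were Pygl and Gsta3 at 0.998 and 0.994.

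**Figure D1:**
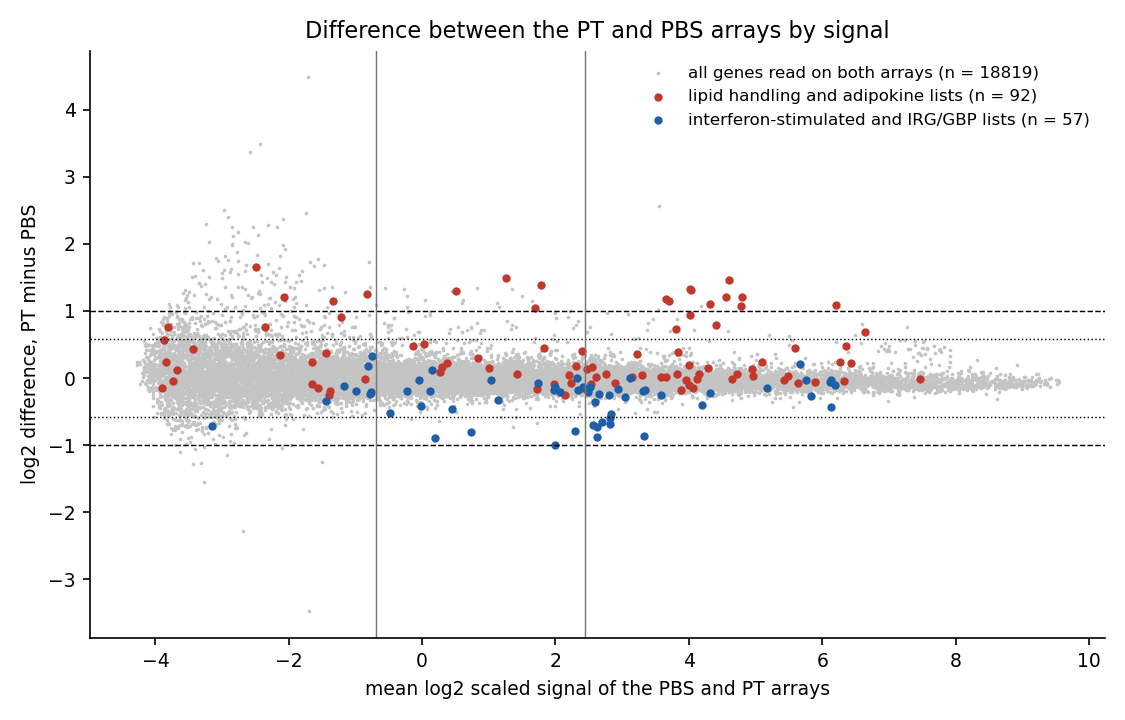
Log2 difference, PT minus PBS, against the mean log2 scaled signal of both arrays for 18819 genes (grey), with 92 genes of the lipid handling and adipokine lists in red and 57 interferon-stimulated and IRG/GBP genes in blue. Dotted lines mark 1.5-fold, dashed lines 2-fold, and vertical lines the borders of the signal classes; the spread narrows as the signal grows (SD 0.38, 0.17 and 0.14), and the red points reach above it and the blue points below it.

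Adipoq, the gene of adiponectin, had a scaled signal of 18.9 with PBS and 40.0035 with PT. The PT array was the higher of the pair, by 1.08 on the log2 scale or 2.11-fold. With daidzein in both cultures the difference was 0.84. Its receptors Adipor1 and Adipor2 differed by -0.10 and 0.03.

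The secreted hormones of the fat cell divided into members that were higher with PT and members near 0. Resistin (Retn) had a signal of 10.4 with PBS and 25.9 with PT, a difference of 1.32 in both of its probes, and 1.096 with daidzein. Adipsin (Cfd), a protease of the alternative complement pathway, went from 13.6 to 29.2, a difference of 1.11 (0.85 with daidzein). Chemerin (Rarres2), a chemoattractant made by fat and liver, read 10.9 and 18.1, a difference of 0.73 (1.11 with daidzein). The array with PT was the higher one of each pair for all of these. Of the 14 adipokine genes read, 4 were at least 1.5-fold higher (2.67% of all genes were), none was 1.5-fold lower (0.659% of all genes were), and 8 lay above 0 (44.4% of all genes did). The median was 0.13 against -0.02 over all genes; with normexp the median was -0.02. Apln, Nampt, Metrnl and Cdh13 lay between -0.18 and -0.07. Leptin (Lep) was not well above background on either array.

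Acute-phase proteins, which adipocytes as well as hepatocytes secrete, showed the same division. Haptoglobin (Hp), the haemoglobin scavenger, had signals of 12.5 and 26.4, a difference of 1.08 (0.92 with daidzein). The orosomucoids Orm1 and Orm2, plasma carrier proteins, differed by 1.05 and 1.12 (1.21 and 1.004 with daidzein). Lipocalin 2 (Lcn2), a siderophore-binding protein, read 1.93 and 3.35, a difference of 0.80 (0.87 with daidzein). The remaining 11 of the 15 genes lay between -0.31 and 0.24, the serum amyloids Saa1, Saa2 and Saa3 at -0.12, 0.14 and 0.04, and the list median was 0.04.

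Among fatty acid uptake and binding genes, 4 that fat cells express strongly were higher with PT. The fatty acid translocase Cd36 had a signal of 0.904 with PBS and 2.23 with PT, a difference of 1.30. Acsl1, which activates long-chain fatty acids with coenzyme A, read 18.4 and 42.4, a difference of 1.203 (1.05 in its other probe). Fabp4, the fatty acid binding protein of adipocytes, read 50.4 and 107.7, a difference of 1.09. Lipoprotein lipase (Lpl) read 79.1 and 127.2, a difference of 0.68. In the daidzein pair these genes differed by 0.88, 0.86, 0.61 and 0.70 in turn. Over the 18 genes read, 4 were at least 1.5-fold higher and 14 lay above 0, against 2.67% and 44.4% of all genes, with a median of 0.17. Slc27a4, Acsl5, Vldlr and Angptl4 were the members below 0, at -0.19 to -0.02.

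Triglyceride assembly followed the same pattern at its entry and end steps. Glycerol-3-phosphate dehydrogenase (Gpd1), which makes the glycerol backbone, had signals of 14.7 and 40.4, a difference of 1.46. Gpat3, an acyltransferase that adds the first fatty acid, differed by 1.04, and Dgat2, which adds the last, by 1.15 (8.74 and 19.4). Pyruvate carboxylase (Pcx), which supplies carbon for glycerol and citrate, read 16.2 and 27.97, a difference of 0.79. These genes were also higher with PT in the daidzein pair, by 0.85, 0.79, 0.96 and 0.81. The phosphatase Lpin1, Agpat2 and Dgat1 lay between 0.40 and 0.51, while Gpam, another enzyme of the first step, was at -0.25 in the dim class. Of 15 genes 12 lay above 0, against 44.4% of all genes, with a median of 0.34 that was 0.16 with normexp.

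On the lipid droplet, perilipin 1 (Plin1), the coat protein that gates access of lipases, read 2.12 and 5.56, a difference of 1.39. Cidec, which fuses droplets into a large one, read 10.2 and 25.7, a difference of 1.33 in one probe and 1.32 in the other. The broadly expressed coat proteins Plin2 and Plin3 lay at -0.02 and -0.08. The list median was 0.02, with 6 of 11 above 0, against 44.4% of all genes. The members typical of fat cells thus stood apart from the rest of the list.

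Lipolysis genes had the highest median of the 44 lists, 0.84, with 9 of 14 at least 1.5-fold higher and 11 above 0, against 2.67% and 44.4% of all genes; with normexp the median was 0.46. Mrap, which carries the melanocortin 2 receptor to the cell surface, read 1.43 and 4.01, a difference of 1.49, and its partner Mc2r differed by 0.76. The triglyceride lipase Pnpla2 read 11.7 and 22.4, a difference of 0.94, hormone-sensitive lipase (Lipe) 0.312 and 0.590, a difference of 0.92, and the monoglyceride lipase Mgll 0.157 and 0.362, a difference of 1.21. Enzymes that start the cascade and enzymes that end it were thus higher with PT alike. The Pnpla2 inhibitor G0s2 was also higher, at 0.366 and 0.876, a difference of 1.26. The carboxylesterases Ces1d and Ces1f, which hydrolyse lipid esters, differed by 1.65 and 1.15. The β3-adrenergic receptor Adrb3 differed by 0.76 (0.80 with daidzein). Of the 14 genes, 9 were in the dim class, where a difference is less precise. In that class 402 of all 6273 genes were at least 1.5-fold higher and 54.9% lay above 0. Among the brighter genes alone, the median of the lipolysis list no longer reached 1.5-fold. Each of the 9 lipolysis genes at 1.5-fold was also above 0.6 in the daidzein pair. The Pnpla2 coactivator Abhd5 differed by only 0.16 and the glycerol channel Aqp7 by -0.14.

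Fatty acid synthesis was led by 2 genes. Stearoyl-CoA desaturase 1 (Scd1) read 15.4 and 35.6, a difference of 1.204, and Thrsp, a lipogenic nuclear protein, read 8.38 and 18.9, a difference of 1.17. Fatty acid synthase (Fasn) differed by 0.48, Me1 by 0.36, Acaca by 0.20 and Acly by 0.14. Of the 20 genes 16 lay above 0, against 39.2% of all brighter genes, with a median of 0.08. Cholesterol synthesis and uptake genes showed small differences, mostly above 0: 20 of 25 lay above 0 and 5 below, where 44.4% of all genes lay above 0. The median of this list was 0.21, and none of its members reached 1.5-fold. Idi1, an isomerase of isoprenoid synthesis, was the highest of the list at 0.56 and Cyp51 the lowest at -0.12. In the daidzein pair the median of these genes was 0.41. Branched-chain amino acid breakdown and TCA cycle genes resembled them, with 23 of 26 above 0 (44.4% of all genes) and a median of 0.13. The highest value was 0.45 for Mccc1, a carboxylase of leucine breakdown.

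Among lipid transport genes, the apolipoproteins C of one gene cluster were each higher: Apoc1 differed by 0.68, Apoc2 by 0.91 and Apoc4 by 1.19, and by 1.34, 1.14 and 1.26 with daidzein. Apoc2 (0.0997 and 0.187) and Apoc4 (0.112 and 0.256) were in the dim class. With normexp Apoc1, Apoc2 and Apoc4 differed by 0.64, 0.36 and 0.50. Apoe, the neighbour of these genes, differed by 0.13. The oxysterol receptor LXRα (Nr1h3) differed by 0.59 in both of its probes, and its target Abca1, a cholesterol exporter, by 0.41.

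The insulin-responsive glucose transporter Slc2a4 had signals of 1.11 and 2.82, a difference of 1.34 (1.46 with daidzein). The other 17 genes of glucose uptake and insulin signalling lay between -0.14 and 0.53, with Insr at 0.14, Irs1 at 0.10, Irs2 at -0.14 and the ubiquitous transporter Slc2a1 at 0.01. The regulators of the programme differed less than many of its end products. C/EBPα (Cebpa) read 1.04 and 1.72, a difference of 0.73 (0.96 with daidzein), and PPARγ (Pparg) read 9.28 and 12.2, a difference of 0.40 (0.77 with daidzein). Cebpb and Cebpd, which act early in differentiation, lay at -0.05 and 0.04.

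**Figure D2:**
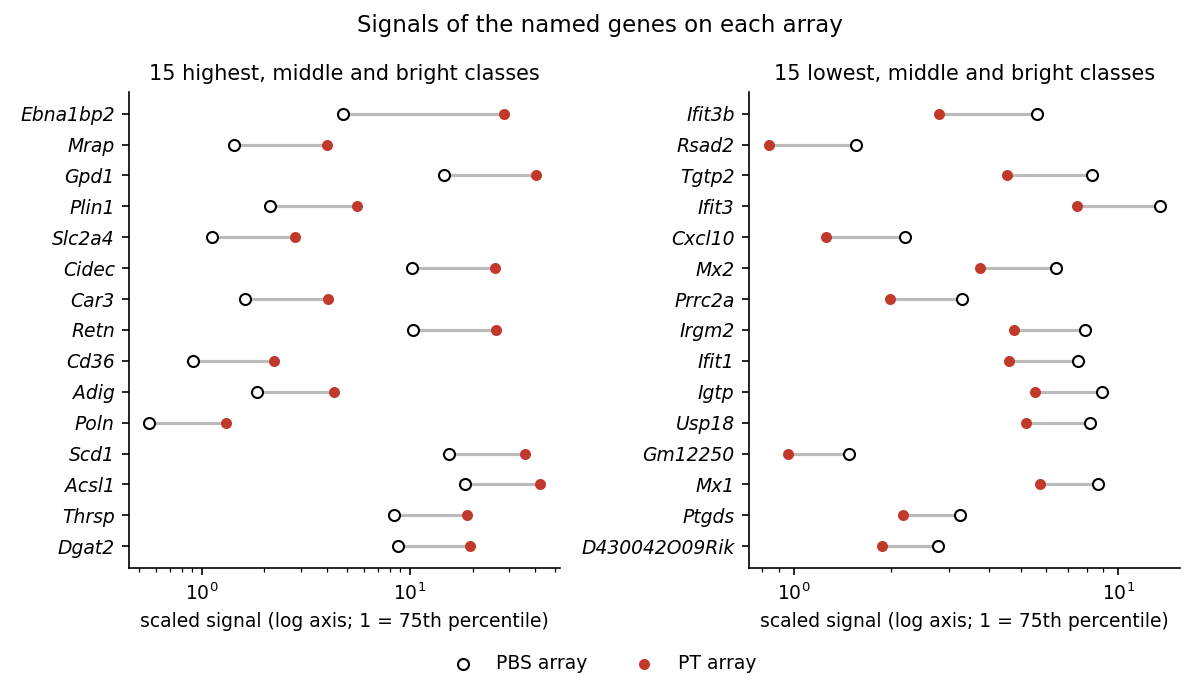
Scaled signal on the PBS array (open) and the PT array (red), on a log axis, for the 15 named genes with the highest and the 15 with the lowest differences among the brighter genes. PT lies to the right in the left panel, from 2.57 (Ebna1bp2) to 1.15 (Dgat2) on the log2 scale, and to the left in the right panel, from -1.003 (Ifit3b) to -0.57 (D430042O09Rik).

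Of the 15 highest genes with a symbol among the brighter genes, Ebna1bp2, a ribosome assembly protein, was the highest at 2.57, but its 3 probes ranged from -0.04 to 2.57 and the daidzein pair gave 0.06. The others, from Mrap to Dgat2, were each at 0.6 or above in the daidzein pair. Carbonic anhydrase 3 (Car3), an abundant adipocyte protein, read 1.62 and 4.05, a difference of 1.32, adipogenin (Adig) 1.84 and 4.31, a difference of 1.23, and the polymerase Poln 0.557 and 1.30, a difference of 1.22. Their differences with daidzein were 1.09, 0.96 and 0.94.

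A pair of marker lists bears on the labelled cell type. The 6 adipocyte markers read (Adipoq, Fabp4, Plin1, Cfd, Cidec and Slc2a4) differed by 1.08 to 1.39, and the summed signal of the list was 96.4 with PBS and 210.9 with PT. The 8 preadipocyte and fibroblast markers differed by -0.09 to 0.07, and their summed signal was 1219 and 1202. Within it, Dlk1, an inhibitor of adipogenesis, read 550.7 and 538.3, and collagen I (Col1a1) read 174.8 and 183.9. In these bulk cultures, more fat cells and more fat-cell RNA per cell cannot be told apart. The wider list of 21 preadipocyte and progenitor genes had a median of -0.03 and a range of -0.46 to 0.23, and 17 collagens had a median of -0.03. Cycling genes did not separate the arrays either: 29 genes of DNA replication and mitosis had a median of -0.04, against 0.20 in the daidzein pair.

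Markers of testis were looked at because the treatment is a testis extract of another species. Of 12 germ cell markers 3 were well above background on each array (Prm1, Prm2 and Sycp1), and the summed signal of the list was 0.398 with PBS and 0.467 with PT. Of 5 Sertoli cell markers only Rhox5 was read, with a difference of 0.08, and of 6 Leydig cell markers on the array only Cyp17a1, at 7.29 and 7.16. Of 10 macrophage markers, 8 were well above background with PBS and 6 with PT, and the summed signal of the list was 37.8 and 36.7. Itgam read 33.8 and 32.6, Csf1r 1.70 and 1.77, while Adgre1 and Ptprc were not well above background on either array. Cd68 differed by -0.16, and Mrc1 and Lyz2 were well above background on the PBS array only. Some macrophage-associated genes were higher with PT even so. Trem2 read 0.773 and 1.52, a difference of 0.98 (0.80 with daidzein), and Chil3 differed by 1.25 (1.14 with daidzein). Marco, close to background at 0.0584 and 0.0989, differed by 0.76 (0.78 with daidzein) but by 0.08 with normexp. The list of 11 myeloid-type and lectin genes that holds Trem2, Chil3 and Marco had a median of 0.16, with 8 members in the dim class. Its median was -0.01 with normexp. Whether macrophages contributed to those signals was not tested.

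**Figure D3:**
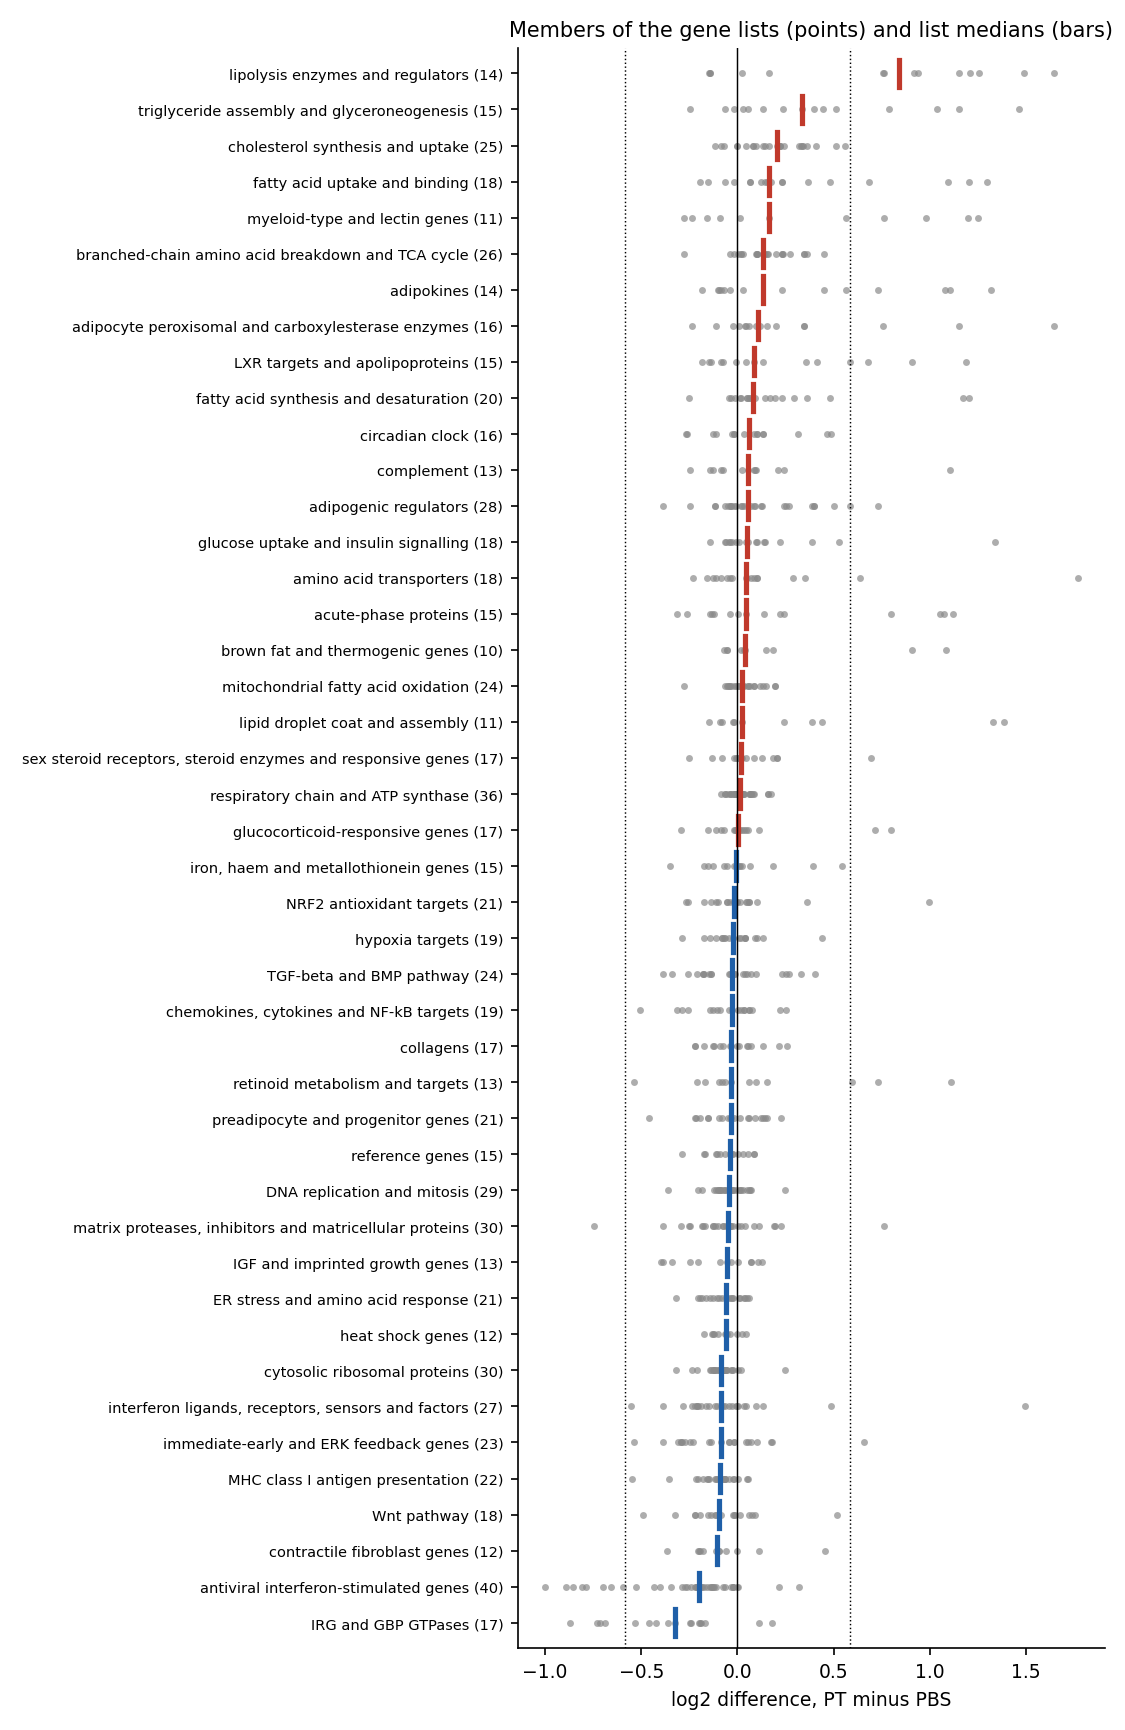
Log2 differences, PT minus PBS, of the members of each gene list (grey points; number read in brackets) with the list median as a bar, red above 0 and blue below, and dotted lines at 1.5-fold. Lipolysis (0.84) and triglyceride assembly (0.34) lie at the top, and antiviral interferon-stimulated genes (-0.20) and IRG and GBP GTPases (-0.33) at the bottom.

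Interferon-stimulated genes made up most of the low end among the brighter genes with a symbol. Of the 15 brighter genes at least 1.5-fold lower with PT, 13 had a gene symbol, and 11 of these 13 were in the interferon lists. In the dim class, 47 genes with a symbol were at least 1.5-fold lower, and 1 of them was in those lists. The lists held 40, 17, 27 and 22 of the 18819 genes read, and were chosen with earlier results of these data known. The Ifit genes encode proteins that bind viral RNA: Ifit1 read 7.501 and 4.62, a difference of -0.70, Ifit3 13.5 and 7.44, a difference of -0.86, and Ifit3b 5.63 and 2.81, a difference of -1.003. Ifit3 and Ifit3b are near-identical copies whose promoter windows hold the same bases, so their probes may share signal. The daidzein pair gave -0.77, -0.97 and -0.89 for them.

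The GTPases Mx1 and Mx2, which block the replication of RNA viruses, differed by -0.59 and -0.78 (-0.69 and -0.65 with daidzein). Viperin (Rsad2), which makes a chain-terminating nucleotide, read 1.55 and 0.837, a difference of -0.89, and its neighbour Cmpk2 differed by -0.53. The ISG15 protease Usp18, which also damps the interferon receptor, read 8.16 and 5.18, a difference of -0.66, and Isg15 itself differed by -0.44. The chemokine Cxcl10 read 2.21 and 1.26, a difference of -0.81, but only -0.18 in the daidzein pair. Over the 40 antiviral genes read, 37 lay below 0 and 3 above, where 44.4% of all genes lay above 0. At least 1.5-fold lower were 8 of the 40, against a background of 0.659%. The median of the list was -0.20, and -0.38 with daidzein. Ifi27l2a and Slfn2 went the other way, at 0.21 and 0.32. Other members near 0 were Bst2, Oas1b and Oas2, at -0.06, -0.03 and 0.00.

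The immunity-related GTPases, which act on the vacuoles of intracellular parasites, had differences of -0.87 for Tgtp2 (8.30 and 4.53), -0.73 for Irgm2 (7.92 and 4.78), -0.69 for Igtp (8.91 and 5.53) and -0.53 for Irgm1. With daidzein these were -0.77, -0.49, -0.65 and -0.51. The guanylate-binding proteins differed less, from -0.42 (Gbp7) to 0.18 (Gbp8). Over both families 15 of 17 genes lay below 0 and 2 above (44.4% of all genes lay above 0), with a median of -0.33.

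The genes upstream of this response differed less. Stat2 lay at -0.22, Irf9 at -0.19 and Irf7, which is itself induced by interferon, at -0.39. The receptor chains Ifnar1, Ifnar2, Ifngr1 and Ifngr2 lay between -0.09 and 0.13, and the sensors Ifih1 and Ddx58 at -0.01 and -0.21. Tlr3 was the exception, higher by 1.495 at a dim signal (0.119 and 0.336), and was not read in the daidzein pair. Antigen presentation genes of MHC class I lay below 0 for 19 of 22 and above for 3, where 39.2% of all brighter genes lay above 0. Their median was -0.09, and -0.03 with cyclic loess. The lowest of them were Erap1, a peptide-trimming protease read in the dim class, at -0.55 (-0.52 with daidzein) and Tap1, a subunit of the peptide transporter, at -0.35 (-0.25 with daidzein). NF-κB targets, chemokines and cytokines had a median of -0.03.

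Outside the interferon lists, few of the brighter genes were at the low end; in the dim class, 109 genes were at least 1.5-fold lower. Prrc2a read 3.30 and 1.99, a difference of -0.73, and the prostaglandin D synthase Ptgds read 3.26 and 2.18, a difference of -0.58, but they differed by -0.09 and -0.15 in the daidzein pair. Gm12250 (Irgb10), a further immunity-related GTPase that was on none of the lists, differed by -0.63 (-0.52 with daidzein). D430042O09Rik differed by -0.57 in one probe and 0.01 in the other.

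The response element core shown in the windows above was counted in all promoters. It was present in 8.54% of the 10368 genes read on both arrays that have a promoter in the table, and in 9.76% of all 27025 genes there. Of the 15 brighter genes at least 1.5-fold lower, 10 had a promoter in the table and 9 of these held the core. These 9 are not independent matches: the windows of Ifit3 and Ifit3b hold the same bases, and those of Irgm2 and Igtp nearly the same. The core, counted per gene, takes no account of such copies. It was present in 17 of 29 antiviral genes and 9 of 10 IRG and GBP genes. Among the members of those lists that have a promoter in the table, 26 genes with the core had a median of -0.26 and held all 9 genes at 1.5-fold lower, while 13 genes without it had a median of -0.21. In the Irgm2 and Igtp windows the core begins 64 and 34 bases before the start, and the match nearest the start among the 3 upstream of Ifit1 and of Ifit3 begins 84 and 102 bases before it. The C/EBP site was present in 10.3% of the promoters of genes read and in 8 of 12 acute-phase promoters. It was present in 11 of 46 promoters of brighter genes at least 1.5-fold higher (23.9%). Of the 33 brighter genes at least 2-fold higher, 15 had a promoter in the table and 3 of these held the site (20%). The C/EBP windows shown above are therefore not typical of the high end. A match is only a match of letters.

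With daidzein in both cultures, the same genes were largely higher with PT when they carried a gene symbol. Of all genes read there, 487 (2.67%) were at least 1.5-fold higher and 146 (0.8%) lower. All 33 brighter genes at 2-fold higher without daidzein lay above 0 with it, where 54.6% of all brighter genes did. At 1.5-fold higher, 51 genes were shared, 50.5% of the 101 without daidzein and 35.4% of the 144 with it. At 1.5-fold lower, 9 were shared, 60% of the 15 and 39.1% of the 23. In the dim class the shared genes were 76 of 321 and 343 higher, and 3 of 87 and 123 lower.

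Splitting the 101 brighter genes by whether the probe has a gene symbol gave different counts. Of the 65 with a symbol, 47 were also at least 1.5-fold higher in the daidzein pair, with a median of 0.81 there. Of the 36 without one, 4 were, with a median of 0.16. Of the multi-probe genes among the 101, 15 of 19 had all their probes above 0. The brightest probe of each was above 0 by the choice of the 101. The 20.9% of all multi-probe genes with every probe above 0 is therefore not a like background.

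**Figure D4:**
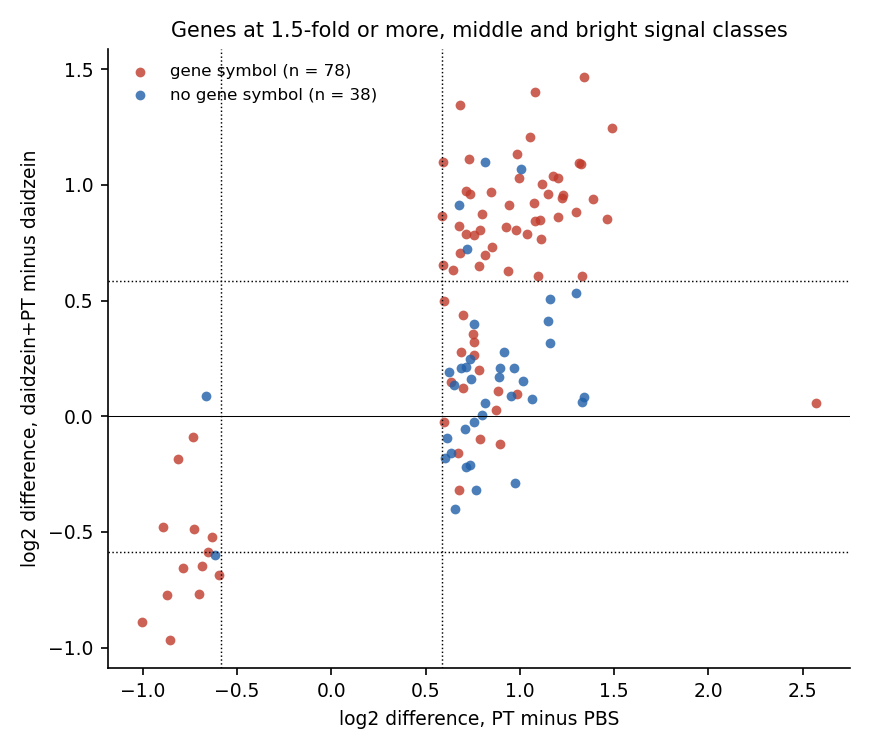
Brighter genes at least 1.5-fold apart in PT minus PBS (horizontal, log2) against daidzein+PT minus daidzein (vertical, log2), which shares no array with it; red points have a gene symbol (n = 78), blue points do not (n = 38), and dotted lines mark 1.5-fold. Most red points on the right lie above the upper line (47 of 65), most blue points near 0 (median 0.16).

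Some of the probes without a symbol share their sequence. A run of at least 18 bases of the repeated triplet GAA, in any frame, was present in 43 of the probes read, 42 of them in the bright class, with a median signal of 138.5 with PBS and 197.1 with PT. This group was looked for after the values were seen. All 43 were higher on the PT array, by 0.22 to 0.80 with a median of 0.44, and 7 reached 1.5-fold. In the daidzein pair their median was -0.13 and 12 of 43 lay above 0. Repeats of AC, 27 probes, all lay below 0, with a median of -0.16 (0.08 with daidzein), and 61 probes with repeats of GT had a median of -0.04. None of the 65 brighter genes with a symbol at 1.5-fold higher, and none of the 15 lower, was read by a probe with such a repeat. Some probes of this kind carry gene names, among them Dcc, Gcm1, Pigr and Gab3, and may not measure those genes. The differences of these probes were 0.48, 0.42, 0.37 and 0.43, and -0.13, -0.35, -0.14 and -0.37 with daidzein.

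The dim genes named here at each end had a symbol and were well above background on all 4 arrays. Other genes went further: over all genes read, differences ran from -3.47 to 4.48. Most of the largest differences of the named dim genes were far smaller, or of the other sign, in the daidzein pair. Nxf2, an RNA export factor, read 0.0552 and 0.619, a difference of 3.49 (0.90 with daidzein). Ctrc, a pancreatic protease, differed by 2.29, Lmod3 by 1.99 and Fgf22 by 1.98, but by 0.14, -0.50 and 0.38 with daidzein. Padi2 differed by 2.03 in one probe and by 0.32 in the other. At the low end, the genes that met these conditions were Il2rg at -1.15, F830016B08Rik at -1.04, Abca17 at -0.99, Amhr2 at -0.90 and Slc16a1 at -0.90. Their daidzein values were 0.04, -0.65, -0.17, 0.38 and -0.07. Gm4841, at -1.11, had a symbol but was not among them. Dim genes that were high in both pairs included the amino acid transporter Slc36a2 (1.77, and 1.41 with daidzein) and Cox8b, a subunit of cytochrome oxidase (1.09, and 1.19 with daidzein).

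Genes well above background on a single array give bounds. There were 1060 on the PT array only, 518 of them at least 2-fold higher than the bound on the PBS array, and 660 on the PBS array only, 54 of them at least 2-fold higher there. The bound sets the measured signal against the dimmest probe well above background on the other array, or the probe's own signal there if that is brighter. The 5 largest for PT were Il12rb2, Gast, Hecw2, Gm6567 and Olah, at least 31.3-fold, 26.03-fold, 22.6-fold, 15.1-fold and 14.4-fold higher. None of them was well above background on the daidzein+PT array. The 5 largest for PBS were Ms4a6c, Cyp2j5, Kcnmb3, Agbl2 and Clmn, at least 6.34-fold, 4.67-fold, 4.11-fold, 3.92-fold and 3.84-fold higher than with PT, and none of these was well above background with daidzein.

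Lists of steroid and stress responses had medians near 0. Of 17 glucocorticoid-responsive genes the median was 0.00, with the sensitive targets Fkbp5 at -0.02, Tsc22d3 at 0.00 and Per1 at -0.11. The members that were higher were Lcn2 and Hsd11b1, which regenerates active glucocorticoid and read 1.49 and 2.45, a difference of 0.72 (0.97 with daidzein). Sex steroid receptor, enzyme and target genes had a median of 0.02, ER stress genes -0.06, heat shock genes -0.06, hypoxia targets -0.02 and NRF2 targets -0.02, although the glutathione transferase Gsta3 differed by 0.99 (1.03 with daidzein). Respiratory chain genes had a median of 0.02 and a range of -0.09 to 0.17, and fatty acid oxidation genes a median of 0.02, with Cpt1a, the entry enzyme, at -0.28 in both pairs. Ribosomal protein genes lay slightly below 0 for 27 of 30 and above for 3, where 39.2% of all brighter genes lay above 0. Their median was -0.08, and -0.01 with cyclic loess. The 15 reference genes ranged from -0.29 (Pgk1) to 0.09 (Tbp), with Actb at -0.11, Gapdh at -0.03, Rplp0 at -0.07 and B2m at 0.00. The probes read for Pgk1 and Gapdh map to chromosomes 3 and 7 (mm9).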

How the data were processed

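RNA of 4 cultures of 3T3-L1 adipocytes was read on 1 single-colour array each, per the labels. The deposited scanner files hold a processed intensity per spot, corrected for background and detrended by Agilent Feature Extraction 10.7.1.1, per the file headers (9.5.1.1 per the submitters' processing notes), with raw intensity, local background and flags. Each array had 62976 spots, and 0 non-control spots were saturated. Non-control spots well above background were 50.7% (PBS), 51.2% (daidzein), 51.4% (PT) and 49.7% (daidzein+PT). The fitted slope over the spike-in controls was 0.92, 0.90, 0.99 and 0.99 in the same order. Control and outlier spots (106 for PBS, 156 for PT) were left out, replicate spots averaged, and log2 intensity was taken minus the array's 75th percentile (314 for PBS, 353 for PT). A gene was read by its brightest probe well above background on both arrays. Of 55681 probes, 27235 had an accession in the RefSeq table and 2838 were renamed. Named genes are Adipoq, the 15 highest and lowest brighter genes and 5 at each end of the dim class. The brighter and dim genes so chosen had a symbol and were well above background on all 4 arrays. Also named are 5 at each end of the bounds, the leading members of each list (up to 8 at 1.5-fold, otherwise 2) and reference genes. Other list members, edge genes and repeat probes were named after their values were seen. The members and lists were chosen with earlier results of these data known. The deposited series table, of normalized intensity, was an alternative, with normexp, quantile, cyclic loess (limma 3.58.1), median scaling, probe means and other filters. The procedure was tested on simulated data. No test was made with 1 array a group, and the number of arrays limits the precision. A gene that the rule for named genes selects is not reported here.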

Additional observations from a re-analysis of the deposited data

Results flagged for a closer look

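For 5 named genes the PT array and the daidzein+PT array lay on opposite sides of their comparison arrays, each by more than the scanner error. Lmod3 differed by 1.99 without daidzein and -0.50 with it, and Amhr2 by -0.90 and 0.38; both were in the dim class. H19, an imprinted noncoding RNA, differed by -0.39 and 0.72, with its 6 probes between -0.68 and -0.22 in the first pair. Smad6, an inhibitor of BMP signalling, differed by 0.41 and -0.41. The glycolytic enzyme Pgk1, read by 1 probe that maps to chromosome 3 (mm9), differed by -0.29 and 0.25. With 1 array a group the difference between the pairs was not tested.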

How the results depend on the processing

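The counts depended on background correction and on dim genes. At 2-fold, 168 genes higher and 12 lower became 46 and 2 with normexp, 143 and 31 with quantile normalization, 142 and 30 in the deposited series table, 2286 and 909 with no filter on dim probes, 133 and 7 where a gene had to be well above background on all 4 arrays, and 33 and 1 among the brighter genes. At 1.5-fold, 503 higher and 124 lower became 186 and 19 with normexp, 356 and 339 with quantile normalization, 354 and 335 in the series table, 3735 and 2030 with no filter, and 101 and 15 among the brighter genes. Median scaling, cyclic loess and the mean over probes kept the 2-fold count of higher genes between 160 and 171. Of 80 named genes at 1.5-fold, every one kept its direction in each alternative that gave it a value; 60 were still at 1.5-fold with normexp and 74 with quantile normalization. List medians past 0.1 kept their direction except 2 with normexp, adipokines (-0.016) and myeloid-type and lectin genes (-0.00774). Dim genes are read close to background, which limits their precision. No paired analysis was possible because each group has 1 array.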
